A study of Mus musculus with 6 samples.

Results

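This report describes 7 miRNAs that are abundant in neurons and have been linked to synapses, namely mmu-miR-137-3p, mmu-miR-138-5p, mmu-miR-153-3p, mmu-miR-218-5p, mmu-miR-129-5p, mmu-miR-384-5p and mmu-miR-135a-5p. They were chosen by name, as the rows of the deposited read table that carry one of these 7 miRNA names, and they are 7 of 1101 miRNA names and 2135 of 143934 read sequences in that table. None of their reads carried a second miRNA name. The samples were cortex together with hippocampus of BL6 mice (C57BL/6J males, by the methods of the study) aged 2 months (2M, 3 libraries) or 18 months (18M, 3 libraries), with no transgene or treatment in either group. The small RNAs were those that came down with the Argonaute proteins Ago1-4 on a peptide of GW182, so that a level is an amount bound to the RNA-induced silencing complex (RISC) and not an amount in the cell. The labels do not say that each library is a separate animal, and p-values then measure only the spread between these libraries.

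A miRNA is cut from a hairpin precursor, and 1 strand is loaded into Argonaute, where bases 2 to 8 from the 5′ end (the seed) pair with target mRNAs. A read that starts 1 base later therefore has another seed, while a read that differs at its 3′ end keeps it. Such variants of a miRNA are called isomiRs. Neurons use miRNAs near synapses to hold back the translation of local mRNAs. mmu-miR-138-5p is known for limiting the size of dendritic spines through the depalmitoylating enzyme Lypla1, mmu-miR-137-3p for neuronal maturation and for a human homologue at a schizophrenia locus, and mmu-miR-129-5p for holding back the potassium channel Kv1.1. mmu-miR-218-5p is made from introns of Slit genes and is known for its part in excitability, mmu-miR-153-3p pairs with mRNAs of synaptic vesicle release, and mmu-miR-384-5p and mmu-miR-135a-5p have been studied in long-term potentiation and depression.

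The mature sequences (RefSeq, GRCm38.p6) are shown because the seed decides which of the 7 stand alone and which share targets with a larger family. Capitals mark the seed, bases 2 to 8:
mmu-miR-138-5p: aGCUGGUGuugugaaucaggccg
mmu-miR-218-5p: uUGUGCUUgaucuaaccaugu
mmu-miR-153-3p: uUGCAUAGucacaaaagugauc
mmu-miR-137-3p: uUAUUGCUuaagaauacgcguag
mmu-miR-135a-5p: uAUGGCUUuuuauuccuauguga
mmu-miR-384-5p: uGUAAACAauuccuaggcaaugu
mmu-miR-129-5p: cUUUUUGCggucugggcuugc
mmu-miR-30a-5p: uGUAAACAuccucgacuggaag

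No 2 of the 7 have a seed in common. The seed of mmu-miR-384-5p is that of the miR-30 family, of which mmu-miR-30a-5p is printed for comparison, and from base 9 on the sequences differ.

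In GRCm38 the 7 miRNAs come from 11 hairpins. Mir137 lay on chromosome 3 at 118433857 to 118433929 (plus strand) in an exon of the noncoding transcript Gm26871. Mir138-1 (chromosome 9, 122682876 to 122682974, plus strand) overlapped an exon of the pseudogene Gm47135, and Mir138-2 (chromosome 8, 94324311 to 94324381, plus strand) an exon of the lincRNA C78859. Mir153 (chromosome 12, 117250817 to 117250885, plus strand) lay within an intron of Ptprn2, which encodes a protein of dense-core vesicles, and opposite an intron of the antisense transcript Gm5441. Mir218-1 (chromosome 5, 48223942 to 48224051, plus strand) lay within an intron of Slit2 and Mir218-2 (chromosome 11, 35616816 to 35616925, plus strand) within one of Slit3, both of which encode axon guidance ligands. Mir129-1 (chromosome 6, 29022619 to 29022691, plus strand) overlapped an exon of the lincRNA Gm3294, and Mir129-2 (chromosome 2, 94241364 to 94241453, minus strand) lay in an intron of the lincRNA Mir670hg. Mir384 (chromosome X, 105344282 to 105344369, minus strand) lay in no other gene. Mir135a-1 (chromosome 9, 106154124 to 106154213, plus strand) lay within an intron of the antisense transcript D030055H07Rik and opposite an exon of Glyctk, and Mir135a-2 (chromosome 10, 92072086 to 92072185, minus strand) in an intron of the lincRNA Rmst.

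Each library held between 19272046 and 25080484 reads, which the authors scaled to nearly the same total per library (999442 to 999856), so that levels are read counts per this total, in RPM. A floor of 3 reads was 0.120 to 0.156 RPM, and the least abundant of the 7 had 14576 reads in its smallest library, so counting error is small beside the spread between libraries. The fixed neuronal markers (mmu-miR-124-3p, mmu-miR-9-5p, mmu-miR-128-3p and mmu-miR-132-3p) summed to 196252 to 255544 RPM, the highest in 18M replicate 2. Markers of other cells were measured as well: 4 of 4 for oligodendrocytes (7365 to 14776 RPM), 6 of 6 for microglia and immune cells (2834 to 4111 RPM), 4 of 4 for vessels (10104 to 17001 RPM), 2 of 2 for erythrocytes (1112 to 3498 RPM) and 5 of 5 for choroid plexus and ependyma (2913 to 3453 RPM). Of the summed lists, only that of microglia and immune cells did not overlap between the ages, with 3776 to 4111 RPM at 2M and 2834 to 3402 RPM at 18M. Most of this sum was mmu-miR-150-5p, at 2852 to 3124 RPM at 2M and 2068 to 2431 RPM at 18M. Of the 5 members with a mean of at least 10 RPM, 2 were higher at 18M (mmu-miR-223-3p and mmu-miR-146a-5p). Apart from mmu-miR-150-5p, each of the 5 overlapped between the ages. Of the pituitary list, mmu-miR-375-3p was at 1124 RPM in 2M replicate 1, while the remaining 5 libraries ranged from 31.0 to 42.2 RPM. The hindbrain and spinal cord list reached 134 RPM in 2M replicate 2, with a range of 11.2 to 72.1 RPM elsewhere.

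The first question was how much of the brain RISC these miRNAs fill. Together they made up 3.21% ± 0.222 of all reads at 2M and 3.44% ± 0.365 at 18M (SD, n = 3), with the groups overlapping. mmu-miR-138-5p was the highest, at 12812, 14546 and 13599 RPM in the 3 libraries of 2M and 15049, 12863 and 16756 RPM in those of 18M. It ranked 16 of the 1101 miRNAs by mean level. mmu-miR-218-5p ranked 35, with 9799, 5581 and 5688 RPM at 2M and 7151, 8174 and 8193 RPM at 18M. Its young libraries spread around all 3 old ones, since 2M replicate 1 was above every old library and the other two below. mmu-miR-153-3p ranked 41, at 6491, 5429 and 7073 RPM at 2M and 6975, 4841 and 5874 RPM at 18M.

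mmu-miR-137-3p, rank 70, came next, with 2436, 1856 and 1995 RPM at 2M and 2878, 1873 and 3381 RPM at 18M. Old replicates 1 and 3 were above all young libraries, and old replicate 2 lay among them. The lowest 3 miRNAs ranked 99, 100 and 114. mmu-miR-135a-5p was at 1153, 1198 and 912 RPM at 2M and 1225, 645 and 1576 RPM at 18M, the widest spread of the 7, with both its lowest and its highest value at 18M. mmu-miR-384-5p was at 1024, 1363 and 864 RPM at 2M and 1133, 1149 and 1082 RPM at 18M. mmu-miR-129-5p was at 935, 742 and 787 RPM at 2M and 756, 869 and 738 RPM at 18M.

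Of the 6 neighbouring pairs in this order, 3 did not overlap over the 6 libraries. mmu-miR-138-5p was 1.31 to 2.61 times as high as mmu-miR-218-5p, mmu-miR-153-3p was 1.74 to 3.55 times as high as mmu-miR-137-3p, and mmu-miR-137-3p was 1.55 to 2.90 times as high as mmu-miR-135a-5p. The ranges of mmu-miR-218-5p and mmu-miR-153-3p overlapped, as did those of mmu-miR-135a-5p, mmu-miR-384-5p and mmu-miR-129-5p, so these neighbours do not differ beyond their spread. Within a library, however, mmu-miR-384-5p was above mmu-miR-129-5p in 6 of 6, at 1.10 to 1.84 times its level. A read is a whole miRNA, so these levels need no scaling by length. By the methods of the study, adapters were ligated to the RNA and the product was amplified by PCR. How evenly this recovers different miRNAs, arms and isomiRs was not tested.

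**Figure D1:**
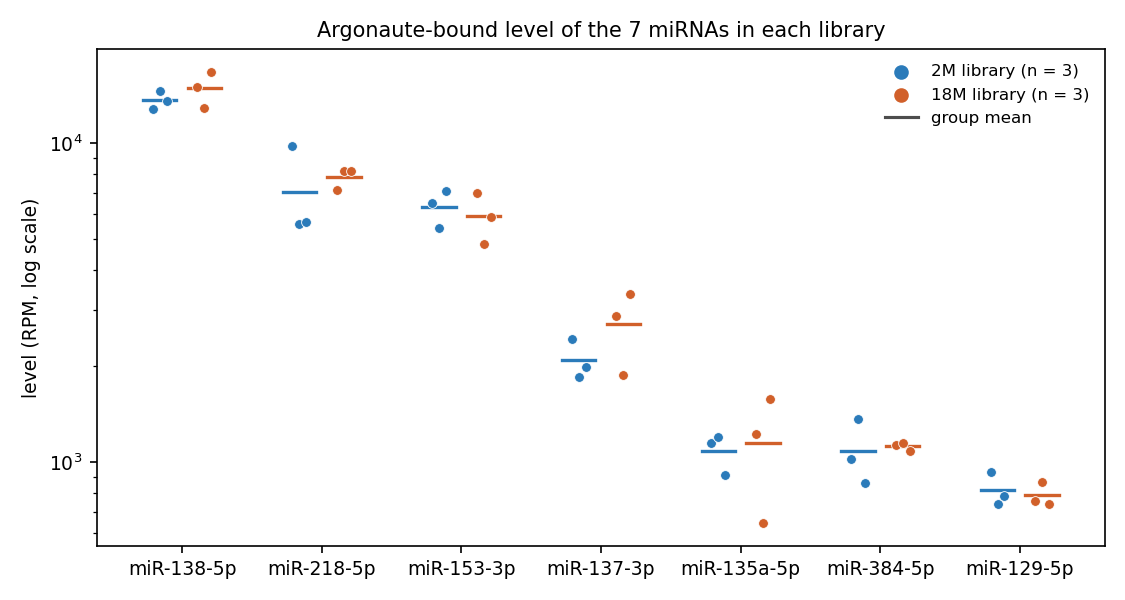
Level of each miRNA in each library in RPM on a log scale, with the 3 libraries of 2M (blue) and of 18M (orange) and a line at each group mean. For each of the 7 miRNAs the 2 ages overlap, and mmu-miR-138-5p lies above the other 6 in every library.

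Next, the levels were compared between the ages with limma on log2(RPM + 1) over all 474 miRNAs with a mean of at least 10 RPM. Of the 7, 0 had an adjusted p under 0.05 and 0 an unadjusted p under 0.05 (limma). Of the 474, 4.85% were called (23, of which 21 were lower at 18M), and 85 had an unadjusted p under 0.05. DESeq2 and the edgeR quasi-likelihood test on the recovered whole reads also called 0 of the 7. The groups did not overlap for 0 of the 7, against 24.9% of the 474. Since these are bulk tissue samples, fewer cells of a type and less of the miRNA per cell cannot be told apart.

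The largest difference was that of mmu-miR-137-3p, with a log2 fold change of 0.34 (SE 0.24, limma adjusted p = 0.478), from 2096 ± 302 to 2711 ± 768 RPM (SD, n = 3). Without 18M replicate 2 it was 0.58, and without 18M replicate 3 it was 0.16. mmu-miR-218-5p differed by 0.21 (SE 0.23, limma adjusted p = 0.679), from 7022 ± 2405 to 7839 ± 596 RPM (SD, n = 3). Without 2M replicate 1, the library with the high mmu-miR-375-3p, its difference was 0.47 with an adjusted p of 0.172 in limma. The part of that library's tissue content in the level of mmu-miR-218-5p was not tested. mmu-miR-138-5p differed by 0.12 (SE 0.13), mmu-miR-384-5p by 0.075 (SE 0.18) and mmu-miR-153-3p by -0.11 (SE 0.18). mmu-miR-129-5p and mmu-miR-135a-5p, at -0.057 (SE 0.14) and -0.0054 (SE 0.33), had a positive difference with median-of-ratios scaling (0.039 and 0.091). The median of the 7 was 0.075, beside -0.074 for all 474 miRNAs. In RPM, 4 of the 7 and 180 of the 474 were higher at 18M. With the other scaling these counts were 6 and 248, and the median of all miRNAs moved by 0.095. The standard errors were 0.13 to 0.33 on the log2 scale with 3 libraries per age. A call needs a difference well above its standard error, so changes of this size and somewhat larger would be missed.

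Other neuron-enriched miRNAs were then counted in the same test. Of a list of 24, all measured, 0 were called higher and 0 lower, where 4.85% of the 474 were called. An unadjusted p under 0.05 (limma) was found for 3 of the 24 and for 85 of the 474. Higher at 18M were 8 of the 24 and 180 of the 474. The median difference of the 24 was -0.094, beside -0.074 for the 474. The 4 neuronal markers among the 24 gave 0 calls.

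The other arm of each hairpin, which is cut from the same precursor, was then examined. The arms were far from equal in most hairpins. mmu-miR-137-3p was 62.0 to 105 times as abundant as mmu-miR-137-5p, and mmu-miR-153-3p 21.1 to 48.4 times as abundant as mmu-miR-153-5p. mmu-miR-138-5p was 34.2 to 47.7 times as high as mmu-miR-138-1-3p and 65.2 to 97.2 times as high as mmu-miR-138-2-3p. The other arms of the Mir135a hairpins were nearly absent from the RISC, with mmu-miR-135a-1-3p at 1.16 to 2.13 RPM and mmu-miR-135a-2-3p at 5.30 to 7.06 RPM.

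The Mir384 and Mir129 hairpins differed from these. mmu-miR-384-5p was only 1.301 to 1.78 times as high as mmu-miR-384-3p, which was at 645 to 869 RPM. mmu-miR-129-5p was lower than the opposite arm of Mir129-2: mmu-miR-129-2-3p was at 2299, 2236 and 2898 RPM at 2M and 3031, 2118 and 3646 RPM at 18M, and the 5p arm was at 0.202 to 0.410 times that level. The 5p arm was also below mmu-miR-129-1-3p in 5 of 6 libraries, where the ratio ranged from 0.459 to 1.12. The exception was 18M replicate 2, in which mmu-miR-129-1-3p was at 778 RPM against 1230 to 1607 RPM elsewhere. The 3p arms carried no read in common, while the 5p arm is the same in both hairpins.

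By age, 0 of the 9 opposite arms tested had an adjusted p under 0.05 (limma). An unadjusted p under 0.05 (limma) was found for 2 of the 9, those of the Mir218 hairpins, and for 85 of the 474 miRNAs. Of the 9, only mmu-miR-218-1-3p and mmu-miR-138-1-3p did not overlap between the ages. mmu-miR-138-1-3p was at 367 to 390 RPM at 2M and 325 to 351 RPM at 18M (limma adjusted p = 0.448). mmu-miR-218-1-3p was at 15.4, 22.7 and 13.2 RPM at 2M and 9.80, 6.65 and 12.5 RPM at 18M (log2 fold change -0.77, SE 0.28, limma adjusted p = 0.220). All its old libraries were below all young ones, where 24.9% of the 474 miRNAs did not overlap. Its mean of 13.4 RPM was near the filter of 10 RPM. mmu-miR-218-2-3p was at 34.4, 24.6 and 22.3 RPM at 2M and 36.7, 34.0 and 46.3 RPM at 18M (log2 fold change 0.52, SE 0.20, limma adjusted p = 0.238), in the opposite direction and with a single young library, replicate 1, above the lowest old one.

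**Figure D2:**
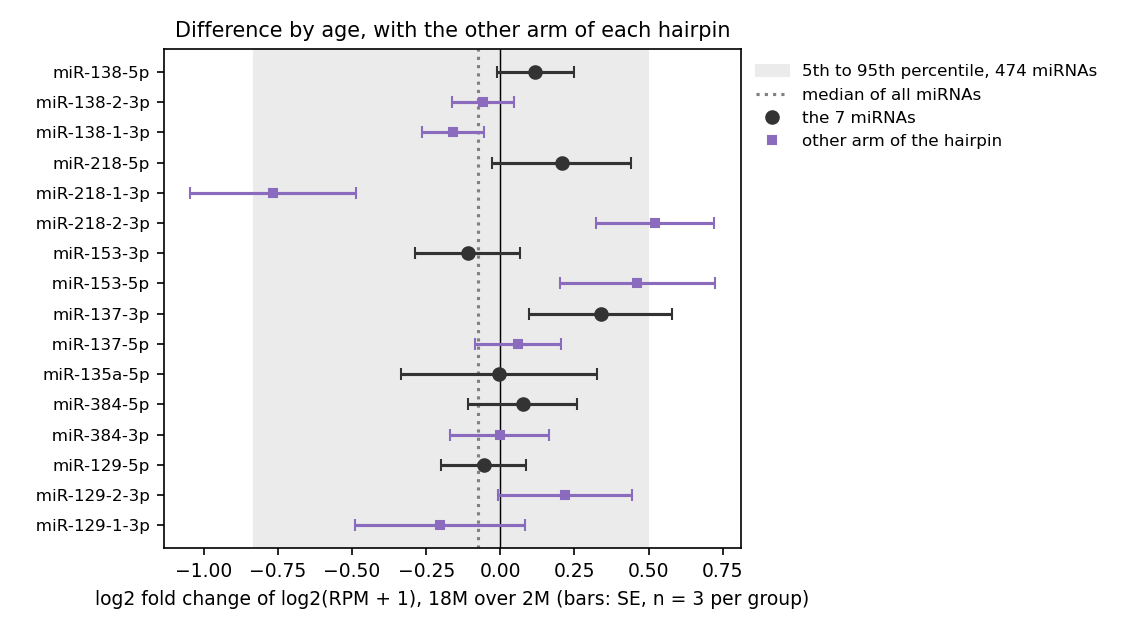
Difference between the ages as a log2 fold change of log2(RPM + 1), 18M over 2M, with its SE from limma (3 libraries per age), for the 7 miRNAs (circles) and the other arms of their hairpins that passed 10 RPM (squares). The shaded band spans the 5th to 95th percentile of 474 miRNAs, and all 7 circles lie within it, between -0.11 and 0.34.

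The seeds were considered next, because the study ranks reads by the survival of cells transfected with a small RNA of the same 6mer seed (read positions 2 to 7), given as the percent of viable cells averaged over 3 mouse lines. By this measure the 7 miRNAs spread over most of the scale. mmu-miR-135a-5p (AUGGCU) had a viability of 32.7% and mmu-miR-138-5p (GCUGGU) of 34.5%, the lowest of the 7. mmu-miR-137-3p (UAUUGC) was at 51.3%, mmu-miR-218-5p (UGUGCU) at 72.2%, mmu-miR-384-5p (GUAAAC) at 76.4%, mmu-miR-129-5p (UUUUUG) at 84.4% and mmu-miR-153-3p (UGCAUA) at 94.7%. Weighted by reads, the mean over the 7 was 58.5% ± 2.10 at 2M and 57.7% ± 1.298 at 18M (SD, n = 3), with overlapping groups.

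For 5 of the 7, nearly every read in the RISC with that 6mer seed was their own: 95.7% for mmu-miR-137-3p, 97.5% for mmu-miR-153-3p, 98.3% for mmu-miR-138-5p, 98.4% for mmu-miR-129-5p and 98.6% for mmu-miR-218-5p (means over 6 libraries). The seed of mmu-miR-153-3p was also the main seed of mmu-miR-448-3p, which was at only 10.7 to 26.7 RPM. mmu-miR-135a-5p supplied 66.0% to 73.0% of its seed, and mmu-miR-135b-5p, from another hairpin, was at 439, 486 and 445 RPM at 2M and 422, 235 and 542 RPM at 18M. Both were lowest in 18M replicate 2 and highest in 18M replicate 3.

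mmu-miR-384-5p was at the other end, with 1.72% to 3.12% of its seed. The seed GUAAAC was on 40141 to 48339 RPM of reads, and the 5 miR-30 miRNAs that carry it (mmu-miR-30a-5p to mmu-miR-30e-5p) had means of 7288 to 12647 RPM each. None of these 5, and neither mmu-miR-448-3p nor mmu-miR-135b-5p, had an adjusted p under 0.05 or an unadjusted one (limma).

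The 5′ ends of the reads were then compared, since they set the seed. In 6 of the 7 miRNAs 92.4% to 98.8% of the reads (means over 6 libraries) began at the annotated first base. mmu-miR-137-3p did not follow this. Only 64.3% to 71.5% of its reads began there, while 18.4% to 23.8% began 1 base and 7.92% to 11.7% began 2 bases downstream. In the smallest library for this miRNA, 11191 of 41859 reads started 1 or 2 bases late (26.7%, Wilson 95% interval 26.3% to 27.2%), and such intervals cover counting error only. The main reads of each start are shown as deposited, in DNA letters, with the 6mer seed in capitals:
mmu-miR-137-3p, first base, 21 nt: tTATTGCttaagaatacgcgt
mmu-miR-137-3p, first base, 23 nt: tTATTGCttaagaatacgcgtag
mmu-miR-137-3p, 1 base later, 22 nt: tATTGCTtaagaatacgcgtag
mmu-miR-137-3p, 2 bases later, 22 nt: aTTGCTTaagaatacgcgtagt

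The 21 nt read, which lacks the last 2 bases of the annotated miRNA, had a mean of 667 RPM (326 to 1079 RPM over the libraries) and the full 23 nt read 626 RPM (382 to 891 RPM). The read 1 base later was at 226 RPM and carried the seed AUUGCU with a viability of 56.3%. The read 2 bases later, with UUGCUU at 87.0%, was at 166, 129.5 and 108.03 RPM at 2M and 178, 168 and 202 RPM at 18M. All its old libraries were above all young ones, with an adjusted p above 0.05 in limma. How many of all tested reads lacked overlap is not given here. Over all its reads, the mean viability of mmu-miR-137-3p was 56.4%, against 51.3% for its main seed. Of 276 miRNAs with a mean of at least 100 RPM, it ranked 26 by the share of reads whose seed was not the main one, at 31.2%, where the median was 3.27%. The next of the 7 were mmu-miR-384-5p at 9.08% and mmu-miR-153-3p at 4.78%, and mmu-miR-218-5p was the lowest at 1.32%.

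Across ages, the share with another seed was 32.1% ± 3.55 at 2M and 30.3% ± 1.61 at 18M for mmu-miR-137-3p (SD, n = 3), and 0 of the 7 differed at an adjusted or an unadjusted p under 0.05 (limma on the log2 ratio of such reads to reads with the main seed; lowest adjusted p = 0.759). Of the 276 miRNAs tested, 0% were called (18 had an unadjusted p under 0.05). On this log2 scale the largest difference among the 7 was that of mmu-miR-153-3p (-0.20), from 5.11% ± 0.538 to 4.46% ± 0.270.

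**Figure D3:**
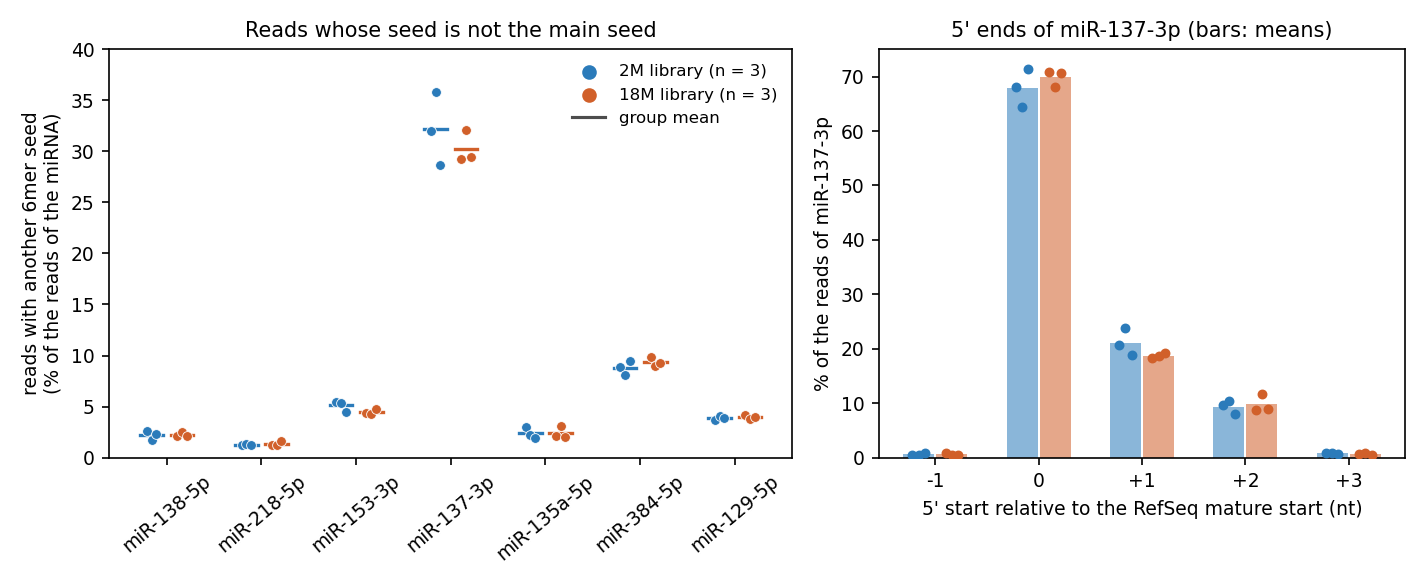
Left, share of the reads of each miRNA whose 6mer seed is not the main seed, in each library, with lines at the group means. Right, share of the reads of mmu-miR-137-3p by 5′ start relative to the RefSeq mature start, with bars at the means and points for libraries (blue 2M, orange 18M). mmu-miR-137-3p lies between 28.7% and 35.8% on the left, above the other 6 in every library.

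A single-base difference within the seed was seen in mmu-miR-384-5p. Positions are counted from 1 at the 5′ end of the read, and the hairpin's base is written first. Reads with A4G made up 1.15%, 1.33% and 1.10% of mmu-miR-384-5p at 2M and 1.35%, 1.35% and 1.25% at 18M, so the groups overlapped. In the library with fewest reads of this miRNA they were 200 of 18130 (1.10%, Wilson 95% interval 0.961% to 1.27%). The main such read is shown beside the unchanged one, with the seed in capitals:
mmu-miR-384-5p, unchanged: tGTAAACaattcctaggcaatgt
mmu-miR-384-5p, A4G: tGTGAACaattcctaggcaatgt

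The change lies within the seed, which becomes GUGAAC, and the viability given for it is 47.7% instead of 76.4%. The next most frequent substitution of this miRNA was T1C. It was in 0.345% to 0.470% of the reads at 2M and 0.481% to 0.538% at 18M. These ranges did not overlap, and how often this occurs among other substitutions is not given here. Among the named reads of the other 6 miRNAs the substitutions with a mean above 0.1% of the reads were all at position 1, and the highest value of any in a library was 0.458%. A change within the last 4 bases of a read was counted as a tail (below), so such substitutions could not appear here. Reads with a substitution in the middle of the miRNA are mostly unnamed in the table, and mmu-miR-129-5p and mmu-miR-218-5p had no named read with a change at position 4, so that this position cannot be compared over all 7. Among reads without a miRNA name, those 1 substitution away from a templated mmu-miR-384-5p read of at least 10 RPM, at positions 4 to 19, summed to 20.8 RPM over 73 sequences, against 14.03 RPM for named reads with a change at position 4.

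The 3′ ends varied more than the 5′ ends. mmu-miR-129-5p and mmu-miR-384-5p were dominated by 1 read, with 71.7% and 75.3% of the reads (means over 6 libraries), and mmu-miR-218-5p and mmu-miR-135a-5p followed with 62.4% and 61.1%. In mmu-miR-138-5p the main read held 44.6%. mmu-miR-153-3p and mmu-miR-137-3p had no dominant read, with 28.3% and 27.2%, and ranked 247 and 251 of 276 miRNAs in this share, whose median was 45.7%. In mmu-miR-153-3p the reads of 20, 21, 22, 23 and 24 nt held 7.46%, 22.6%, 31.8%, 15.1% and 22.2%. The longest of its leading reads extends the annotated 3′ end by 2 bases of the hairpin and is shown with the annotated form, the seed in capitals:
mmu-miR-153-3p, 22 nt: tTGCATAgtcacaaaagtgatc
mmu-miR-153-3p, 24 nt: tTGCATAgtcacaaaagtgatcat
mmu-miR-153-3p, 21 nt: tTGCATAgtcacaaaagtgat

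These 3 reads had means of 1710, 1330 and 1299 RPM. The reads of 24 nt were 23.8%, 24.6% and 23.5% of mmu-miR-153-3p at 2M and 21.0%, 17.8% and 22.3% at 18M, without overlap. The mean length of its reads was 22.3 nt ± 0.0944 at 2M and 22.1 nt ± 0.0809 at 18M (SD, n = 3), a difference of -0.16 nt with an unadjusted p of 0.0406 and an adjusted p of 0.282 in limma. Of the 276 miRNAs, 1.45% were called for mean length, and 0 of the 7. Its groups overlapped in mean length. Those of mmu-miR-384-5p did not, with 22.77 to 22.84 nt at 2M and 22.73 to 22.75 nt at 18M (difference -0.057 nt, adjusted p = 0.378, limma). How many of the 276 lacked overlap in mean length, or in the share of reads of 24 nt, is not given here.

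**Figure D4:**
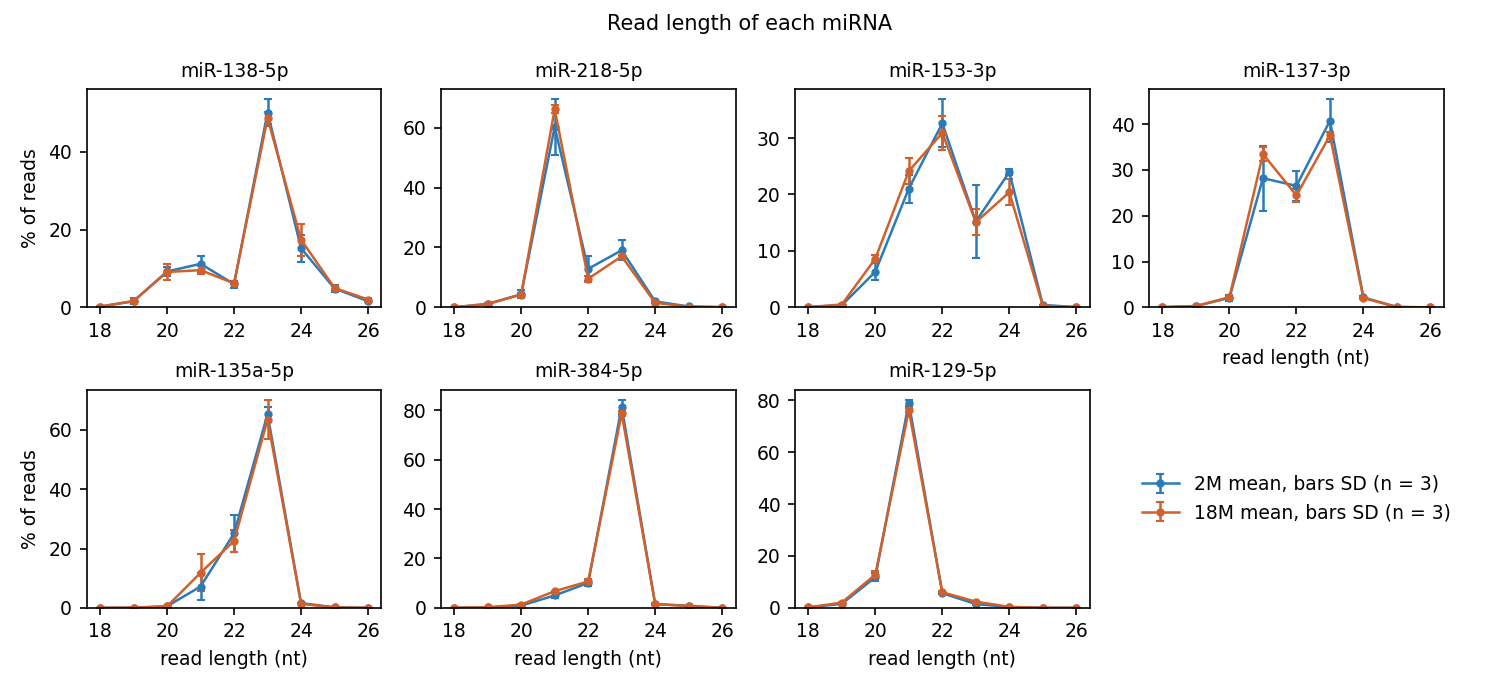
Share of the reads of each miRNA by read length in nt, as the mean of the 3 libraries of 2M (blue) and 18M (orange) with SD. mmu-miR-129-5p and mmu-miR-384-5p have a single peak, at 21 and 23 nt, while mmu-miR-153-3p spreads over 20 to 24 nt and mmu-miR-137-3p has peaks at 21 and 23 nt.

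The share of the main read overlapped between the ages for 6 of the 7. For mmu-miR-129-5p it was 74.6%, 72.8% and 73.3% at 2M and 69.3%, 70.6% and 69.8% at 18M, without overlap (log2 of main over other reads, difference -0.26, SE 0.09, unadjusted p = 0.0250, adjusted p = 0.352, limma). Of the 276 miRNAs tested 0% were called, with 29 at an unadjusted p under 0.05. How many of the 276 lacked overlap in this share is not given here, so the order in mmu-miR-129-5p is a description only.

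Where a miRNA has 2 hairpins, reads that run past the part the hairpins share match only 1 of them. A shared read with 1 added base can look the same. For mmu-miR-218-5p, reads that match Mir218-2 alone summed to 422 to 629 RPM and those that match Mir218-1 alone to 13.0 to 19.3 RPM. The reads that tell them apart differ in the last base:
Mir218-2, 23 nt: ttgtgcttgatctaaccatgtgg
Mir218-1, 23 nt: ttgtgcttgatctaaccatgtgc

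Counting only reads that extend past the 22 bases in common, the Mir218-2 form was 30.5 to 42.3 times as frequent. With at least 2 bases past the common part the ratio was lower, at 8.81 to 12.7 times, with 44.7 to 57.7 RPM for Mir218-2 and 3.67 to 5.62 RPM for Mir218-1. The opposite arms differed less, since mmu-miR-218-2-3p was 1.09 to 5.11 times as high as mmu-miR-218-1-3p. For mmu-miR-138-5p the pair of reads was:
Mir138-1, 24 nt: agctggtgttgtgaatcaggccgt
Mir138-2, 24 nt: agctggtgttgtgaatcaggccga

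Reads of Mir138-1 alone summed to 1285 to 2604 RPM and those of Mir138-2 alone to 599 to 910 RPM. Each read of this pair could also be a shared read with 1 added base, and these cannot be told apart at this length. With at least 2 bases past the common part, Mir138-1 reads were at 322 to 620 RPM and Mir138-2 reads at 0.594 to 1.09 RPM. The opposite arm of Mir138-1 was 1.88 to 2.26 times as high as that of Mir138-2. For the Mir129 and Mir135a hairpins, reads specific to 1 copy summed to at most 5.62 RPM in any library.

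Bases that the hairpin does not encode were also found at the 3′ end. A substitution within the last 4 bases of a read was not told apart from a tail. A read was called tailed when it matched a hairpin from its start and departed from it within its last 4 bases. Such reads were 12.6% to 16.5% of mmu-miR-218-5p, 10.6% to 15.5% of mmu-miR-138-5p, 9.89% to 13.1% of mmu-miR-129-5p and 6.02% to 10.3% of mmu-miR-137-3p. They were rarer in mmu-miR-135a-5p (3.61% to 5.82%) and mmu-miR-153-3p (3.10% to 3.95%) and rarest in mmu-miR-384-5p (1.23% to 1.64%). A single A was the most frequent tail in 6 of the 7, from 7.89% of the reads of mmu-miR-218-5p and 5.999% of those of mmu-miR-129-5p to 0.729% of those of mmu-miR-384-5p. In mmu-miR-135a-5p a single U was the most frequent (2.15%). An added base that matches a hairpin counted as templated. The 24 nt reads of mmu-miR-138-5p shown above, so counted, held 9.72% (Mir138-1) and 4.95% (Mir138-2) of its reads. As they could be shared reads with 1 added base, the tailed share of mmu-miR-138-5p could be higher than given.

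Tailed reads took a larger share at 18M in 6 of the 7, and in 4 of them every old library was above every young one. mmu-miR-138-5p had 12.5%, 11.4% and 10.6% at 2M and 12.7%, 15.5% and 14.1% at 18M. mmu-miR-129-5p had 11.4%, 9.89% and 10.8% at 2M and 11.98%, 13.1% and 12.9% at 18M. mmu-miR-153-3p went from 3.45% ± 0.357 to 3.92% ± 0.0504 and mmu-miR-384-5p from 1.32% ± 0.0959 to 1.53% ± 0.0992 (SD, n = 3). mmu-miR-218-5p was the exception, at 14.7% ± 1.97 and 13.9% ± 0.565. Over the 7 together the share was 10.03%, 9.86% and 9.06% at 2M and 10.2%, 12.2% and 11.1% at 18M. Of the 228 miRNAs of at least 100 RPM with a RefSeq hairpin, 20.2% had all old libraries above all young ones, and 161 of the 228 had a higher mean at 18M, so this shift was not confined to the 7, and the difference between them and the rest was not tested.

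Tails of 2 bases, A and then A or U, were taken by themselves. In mmu-miR-129-5p it was on 1.33%, 0.940% and 1.25% of the reads at 2M and on 1.87%, 2.37% and 1.63% at 18M. In mmu-miR-218-5p it was on 1.03%, 1.27% and 1.25% at 2M and 1.39%, 1.59% and 1.59% at 18M. In both, all old libraries were above all young ones, where 21.5% of the 228 miRNAs had this order. In mmu-miR-138-5p it was on 2.23%, 1.65% and 1.32% at 2M and 1.83%, 4.34% and 2.69% at 18M, with overlap.

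**Figure D5:**
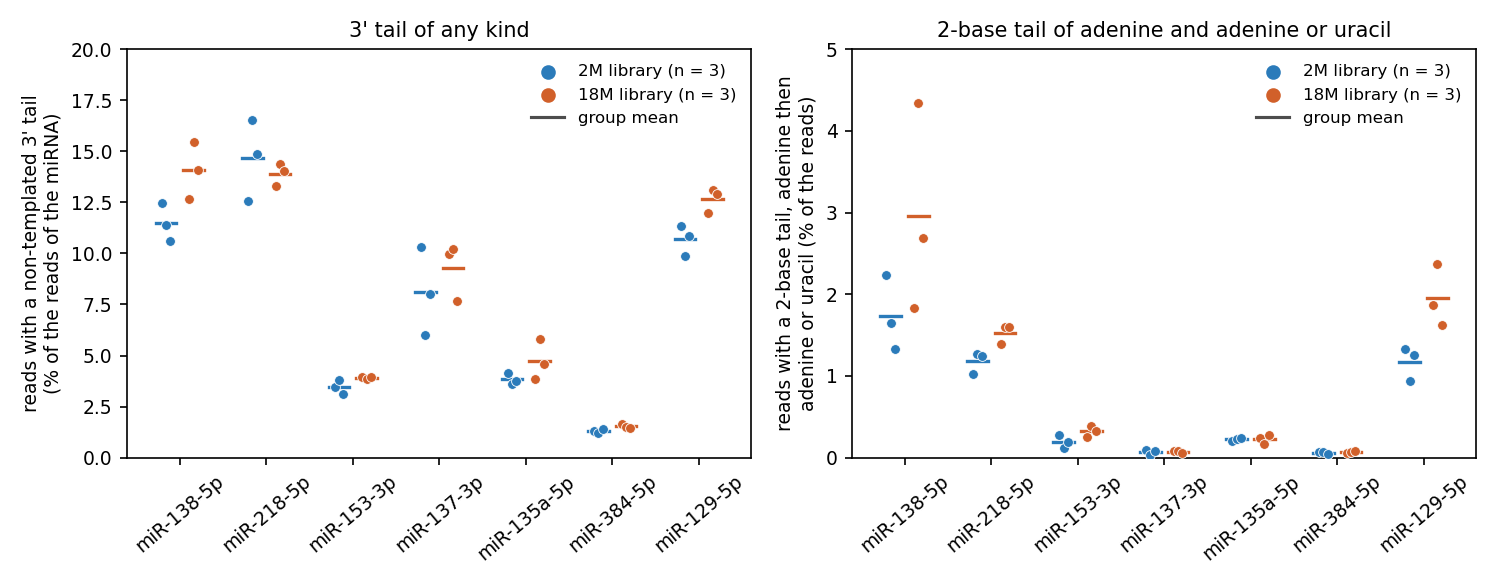
Share of the reads of each miRNA with a 3′ tail (a departure from its hairpins within the last 4 bases), in each library, with lines at the group means. Left, tails of 1 to 4 bases; right, tails of 2 bases, adenine followed by adenine or uracil (3 libraries per age). On the left the ages do not overlap for mmu-miR-138-5p, mmu-miR-153-3p, mmu-miR-129-5p and mmu-miR-384-5p.

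Single reads were tested in the same way. Of the 2135 read sequences of the 7 miRNAs, 103 had a mean of at least 10 RPM and held 96.4% of their reads. In limma 0 of the 103 had an adjusted p under 0.05, where 0.366% of 3281 tested reads did. At an unadjusted p under 0.05 there were 12, all higher at 18M, where 8.41% of the 3281 were higher at that threshold. Of the 103, 81 were higher at 18M, beside 1722 of the 3281. Of the 12, 10 were tailed, while 49 of the 103 were tailed. These counts include reads with a substitution within the last 4 bases, and the tailed share of all 3281 reads is not given here. Of the 12, mmu-miR-138-5p gave 6, mmu-miR-218-5p gave 4, and mmu-miR-384-5p and mmu-miR-137-3p gave 1 each.

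The read with the lowest p belonged to mmu-miR-218-5p. It ends in a tail of 2 bases and was at 7.81, 3.95 and 4.58 RPM at 2M and 13.2, 18.8 and 21.9 RPM at 18M (log2 fold change 1.58, SE 0.29, adjusted p = 0.0967 in limma and 6.63e-05 in DESeq2). Next came a read of mmu-miR-138-5p with the same tail on a base that matches Mir138-1. It was at 33.9, 30.3 and 33.0 RPM at 2M and 49.7, 58.4 and 74.9 RPM at 18M (log2 fold change 0.87, SE 0.18, adjusted p = 0.141 in limma and 0.00161 in DESeq2). For both, each old library was above each young one, and how many of all tested reads had this order is not given here. These 2 reads, and another of each miRNA with a tail of 2 bases, are shown because such tails recur among the 12. Capitals again mark the 6mer seed:
mmu-miR-218-5p, 23 nt: tTGTGCTtgatctaaccatgtat
mmu-miR-138-5p, 26 nt: aGCTGGTgttgtgaatcaggccgtat
mmu-miR-218-5p, 23 nt: tTGTGCTtgatctaaccatgtaa
mmu-miR-138-5p, 23 nt: aGCTGGTgttgtgaatcaggcat

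The third read was at 50.6, 30.6 and 32.5 RPM at 2M and 53.7, 72.3 and 70.9 RPM at 18M (log2 fold change 0.80, SE 0.23, limma adjusted p = 0.244). The fourth was at 47.0, 48.9 and 31.7 RPM at 2M and 54.1, 142 and 96.3 RPM at 18M (log2 fold change 1.10, SE 0.36, limma adjusted p = 0.276). The 1 read of mmu-miR-384-5p among the 12 was not tailed but shorter by 2 bases than the annotated form, at 49.1, 45.6 and 39.98 RPM at 2M and 63.2, 66.1 and 64.6 RPM at 18M (log2 fold change 0.52, SE 0.14, limma adjusted p = 0.224). DESeq2 on the recovered whole reads called 6 of the 103, all higher at 18M, where it called 4.6% of the 3281. These calls thus depended on the test.

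The main reads of all 7 overlapped between the ages, with adjusted p-values of 0.427 to 0.975 in limma. The largest difference was that of the 21 nt read of mmu-miR-137-3p, at 575, 326 and 643 RPM at 2M and 847, 534 and 1079 RPM at 18M (log2 fold change 0.67, SE 0.34, limma adjusted p = 0.427). Next was that of mmu-miR-218-5p at 0.35 (SE 0.32), whose lowest and highest values, 2819 and 6755 RPM, were both at 2M. The differences of the other 5 ranged from -0.20 for mmu-miR-153-3p to 0.040 for mmu-miR-138-5p.

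Finally, the miRNA whose profile over the 6 libraries was most like each of the 7 was sought among 269 others with at least 100 RPM, by the root mean square difference of centred log2(RPM + 1) values. mmu-miR-137-3p was nearest to mmu-miR-153-5p, the opposite arm of Mir153, at 0.13, where its own spread by this measure was 0.33. mmu-miR-153-3p itself was nearest to mmu-miR-103-3p (0.089, own spread 0.20) and mmu-miR-138-5p to mmu-miR-1843b-5p (0.091, own spread 0.14). mmu-miR-218-5p was nearest to mmu-miR-344d-3p (0.13, own spread 0.29), with 275, 205 and 196 RPM at 2M and 250, 257 and 292 RPM at 18M. mmu-miR-384-5p was nearest to mmu-miR-495-3p (0.10, own spread 0.20), mmu-miR-129-5p to mmu-miR-376b-3p (0.060, own spread 0.13) and mmu-miR-135a-5p to mmu-miR-540-5p (0.13, own spread 0.40). Of these neighbours, mmu-miR-344d-3p and mmu-miR-495-3p are on the list of other neuron-enriched miRNAs, whose share of the 269 is not given here. With 6 libraries the nearest profiles are descriptions without a test.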

How the data were processed

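Small RNA bound to Ago1-4 was pulled down with a GW182 peptide from cortex with hippocampus, gel-selected and sequenced. By the methods of the study, reads were trimmed, identical reads collapsed, rare reads and artificial sequences removed and the rest matched to lists of mouse small RNAs. The versions of the tools that trimmed and matched the reads, and a genome build, are not given in the sources used here. The authors deposited each read sequence in RPM, with each library scaled to the same total, and a viability score of its 6mer seed. Every value (100%) was a whole number of reads to within 0.1 read, and these reads were recovered.

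RPM of all reads of a miRNA name were summed. Levels and reads were tested with limma 3.58.1 (R 4.3.3), with a trend, on log2(RPM + 1), which understates changes of low features, for miRNAs or reads averaging 10 RPM or more. Shares and lengths were tested without trend for miRNAs of at least 100 RPM. Benjamini-Hochberg adjustment ran over all features tested, with a threshold of 0.05. Alternatives used edgeR 4.0.16 and DESeq2 1.42.0. Reads were aligned without gaps to RefSeq hairpins (GRCm38.p6), a tail being up to 4 bases after at least 14 matched bases. Genes at the hairpins come from GENCODE M21. The fits were tested on simulated data. Python 3.11.15, pandas 2.3.3 and matplotlib 3.10.9 were also used.

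Groups came from the sample titles. No per-sample column lay outside the 6 libraries. No 2 libraries were duplicates (chi-square per degree of freedom at least 435). Named features were the 7 miRNAs, their leading reads, opposite arms, miRNAs with the same seed, the nearest profile, and fixed marker lists. Reads at an unadjusted p under 0.05, the A4G change, tails and copy-specific reads were singled out after their values were seen. The members and lists were chosen with earlier results of these data known.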

Additional observations from a re-analysis of the deposited data

How the results depend on the processing

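Of the 7 miRNAs, 0 were called for level, seed share, mean length or main-read share under each alternative run. Among all 474 miRNAs the count of 23 became 14 with median-of-ratios scaling, 14 with edgeR, 15 without the trend, 15 with singly named reads, 46 with DESeq2, 2 at a mean of at least 100 RPM and 3 without a filter, and 0 to 15 when a library was left out, the 15 without 18M replicate 2. Over all reads the count of 12 became 20 at a mean of at least 1 RPM (0.123% of 16220), 151 with DESeq2, and 0 in each fit that left out a library (257 to 558 at an unadjusted p under 0.05, limma). Among reads of the 7 it became 1 at a mean of at least 1 RPM, a tailed read of mmu-miR-138-5p, and 6 with DESeq2. For mean length the count of 4 became 0 at a mean of at least 10 RPM (69 unadjusted, limma) and 0 to 2 when a library was left out. For the share with another seed the count of 0 became 1 over reads of at least 1 RPM.

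The replicate number pairs no samples here, since the deviations of same-numbered libraries correlated at -0.17, -0.22 and -0.10. No library correlated best with its own number. With the number as a replicate block the counts were 1 miRNA, 0 reads and 0 for mean length (70, 348 and 44 at an unadjusted p under 0.05, limma). The other counts stayed at 0.

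Some differences of the 7 changed sign. mmu-miR-129-5p was at 0.039 with median-of-ratios scaling, 0.044 with DESeq2 and 0.032 with edgeR, and mmu-miR-135a-5p at 0.091, 0.15 and 0.14. The mean length of mmu-miR-129-5p became -0.0011 nt over reads of at least 1 RPM. When a library was left out, levels ranged from -0.13 to 0.040 for mmu-miR-129-5p, -0.28 to 0.36 for mmu-miR-135a-5p, -0.24 to 0.025 for mmu-miR-153-3p and -0.075 to 0.25 for mmu-miR-384-5p. The share with another seed ranged from -0.18 to 0.20 for mmu-miR-135a-5p, -0.13 to 0.17 for mmu-miR-138-5p and -0.010 to 0.17 for mmu-miR-218-5p. The main-read share ranged from -0.33 to 0.095 for mmu-miR-135a-5p and -0.27 to 0.034 for mmu-miR-153-3p, and mean length from -0.011 to 0.021 nt for mmu-miR-129-5p and -0.11 to 0.0014 nt for mmu-miR-135a-5p. The order of the 7 levels and the 3 overlapping pairs were the same with median-of-ratios scaling and with singly named reads. Causes were not tested.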

Other observations

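In 18M replicate 2, mmu-miR-135a-5p had its lowest level of the 6 libraries (645 RPM), its smallest main-read share (51.0%, against 59.9% to 65.2% elsewhere) and its largest share of reads of 21 nt (18.6%, against 4.10% to 12.3%). A single U tail was on 3.95% of its reads there and on 1.304% to 2.47% in the other libraries. In the same library mmu-miR-153-3p and mmu-miR-135b-5p were also at their lowest, and mmu-miR-138-5p had its largest share of 2-base tails (4.34%). The summed neuronal markers were at their highest there (255544 RPM), and the part of any of this in the values above was not tested.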
